A study of Homo sapiens with 6 samples.

Results

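The genes described here are *YAP1*, *WWTR1*, *TEAD1*, *TEAD4*, *LATS2*, *CCN1*, *CCN2*, *ANKRD1*, *AMOTL2* and *AJUBA*, taken by symbol from the deposited gene counts, where each of the 10 matched a single Ensembl identifier among 58336 genes. They were measured by RNA sequencing in A2780, an established human ovarian cancer cell line, given the vehicle DMSO or 6 µM TH588 (labelled TH-588), a first-generation inhibitor of the nucleotide-pool enzyme MTH1 that also stalls cells in mitosis. Cells were harvested after 48 h in biological triplicate (replicates A, B and C), and all 6 libraries came from the same parental line in the same insulin-supplemented medium. The comparison asks how transcripts of the YAP and TEAD system differed after treatment.

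*YAP1* and its paralog *WWTR1*, which encodes TAZ, are transcriptional coactivators with no DNA-binding domain of their own. They act by binding TEAD factors, which recognise the core sequence GGAATG and recruit them to genes such as *CCN1*, *CCN2* and *ANKRD1*. The Hippo cascade, ending in the kinases LATS1 and LATS2, phosphorylates YAP and TAZ and keeps them out of the nucleus, so their activity is set mainly on the protein, and a transcript level does not measure it.

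Of the 10 genes, 4 were higher after TH588 (*YAP1*, *WWTR1*, *CCN1* and *CCN2*), 3 were lower (*TEAD1*, *TEAD4* and *AJUBA*), and *LATS2*, *AMOTL2* and *ANKRD1* did not pass the threshold. The largest rise was that of *CCN1*, to 2.76 times its DMSO level, and the largest fall that of *TEAD4*, to 0.522 times. A gene was called where its p from edgeR's quasi-likelihood test, adjusted over 15844 genes after Benjamini and Hochberg, was under 0.05. By the same rule 49.6% of all tested genes were called, 24.2% higher and 25.3% lower, so 7 called genes of 10 stand against a background in which about every other gene was called. All 10 passed the filter on low counts. The 7 called genes were also those whose DMSO and TH588 libraries did not overlap, which held for 57.7% of all tested genes. Permuting 6 libraries exactly gives a two-sided p of at least 0.1 for any gene alone, which is why calls were taken from the model of all genes.

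Libraries held 77634048 to 99074175 counts, except TH588 replicate A with 28537837, in which the small nucleolar RNA *SNORD3A* took 21.9% of counts against 7.68% to 13.0% in the others. Levels are therefore given as CPM, a gene's counts scaled to a common library size after TMM normalization. *CDKN1A*, which encodes the p53-induced cell cycle inhibitor p21, lay at 4.84 to 5.72 CPM in DMSO libraries and at 111.7 to 158.3 CPM in TH588 libraries and did not overlap between them, which checks the labels against the treatment. The median log2 fold change of all tested genes was 0.02, and 0.13 when only library size was normalized for. Under that scaling higher genes made up 60.4% of the calls and with TMM 48.9%, and small changes are read relative to that shift. Of 10 ovarian and epithelial markers only *EPCAM* and *KRT18* passed the filter on low counts. Both were higher after TH588, with log2 fold changes of 2.87 and 0.88, and the 10 together summed to 3.89 to 4.63 CPM under DMSO and 10.9 to 12.2 CPM under TH588. *PAX8*, the usual Müllerian lineage marker, and *KRT7* had 0 counts in all 3 DMSO libraries. Of 13 markers of fibroblast, immune, endothelial, blood and liver cells, *CD3E* and *HBB* were at 0 in every library, 7 could be tested and 2 were higher (1 without DMSO replicate B or C, 0 without TH588 replicate B): the collagen gene *COL3A1* (1733 ± 164.5 CPM under DMSO and 2279 ± 378.2 under TH588, SD, n = 3) and *PDGFRB*, at log2 fold changes of 0.39 and 0.61. The *COL3A1* libraries overlapped between the groups, and the gene was named after its values were seen, while *PDGFRB* lost its call without DMSO replicate C or TH588 replicate B. *COL3A1* made up most of their summed level, 1591 to 1919 CPM under DMSO and 1879 to 2620 CPM under TH588. The part of these marker differences in the results below was not tested. RNA from a whole culture cannot tell a change in every cell from a change in some of them.

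The TEAD core was looked for in the 250 bases before each gene's start, on RefSeq sequence of build GRCh38.p14, because YAP and TAZ reach DNA through it. The sequences held 10 start sites for 7 of the genes, and those of *CCN1*, *TEAD1* and *TEAD4* were not analysed here. GGAATG, read on both strands, was present before 5 of the 10 starts, against 11.9% of all 35116 starts. Several of the genes were chosen as known YAP targets, so this share is not independent of the choice. The AP-1 motif TGANTCA, which reads the same on both strands, occurred before 1 of the 10 starts, that of *ANKRD1*. It was present before 6.57% of all starts, and the *ANKRD1* match overlapped no TEAD core. A match describes the letters and not a bound site. *CCN2* held the most, with 3 copies on the gene's strand, of which 2 lay 99 to 104 and 90 to 95 bases before the start. Its sequence is shown because *CCN2* is the standard reporter gene of YAP activity, and that of *YAP1* because the coactivator's own gene carries a match, 157 to 162 bases before its start. Capitals mark GGAATG. The windows are chr6:131951373-131951622 on the minus strand and chr11:102110197-102110446 on the plus strand.
CCN2: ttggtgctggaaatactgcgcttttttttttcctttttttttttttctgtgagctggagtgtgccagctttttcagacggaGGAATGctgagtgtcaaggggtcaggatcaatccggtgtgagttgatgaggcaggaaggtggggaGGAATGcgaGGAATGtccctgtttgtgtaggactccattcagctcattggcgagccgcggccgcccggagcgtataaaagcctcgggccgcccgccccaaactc
YAP1: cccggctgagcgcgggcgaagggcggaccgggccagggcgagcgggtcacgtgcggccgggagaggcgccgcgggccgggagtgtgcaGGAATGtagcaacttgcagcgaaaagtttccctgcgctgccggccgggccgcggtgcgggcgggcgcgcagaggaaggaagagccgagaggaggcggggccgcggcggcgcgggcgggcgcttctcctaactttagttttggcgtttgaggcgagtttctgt

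*ANKRD1* held 2 copies, also on the gene's strand, shown as 30-base sites at chr10:90921290-90921319 and chr10:90921198-90921227 of GRCh38.p14, minus strand, because this target has the same core and was nearly silent in these cells. In the counts table the gene's model begins further upstream than in RefSeq, and takes in the second of the sites.
ANKRD1 distal: atcaccaccaaaGGAATGgccctctcacat
ANKRD1 proximal: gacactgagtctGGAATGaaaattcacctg

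**Figure D1:**
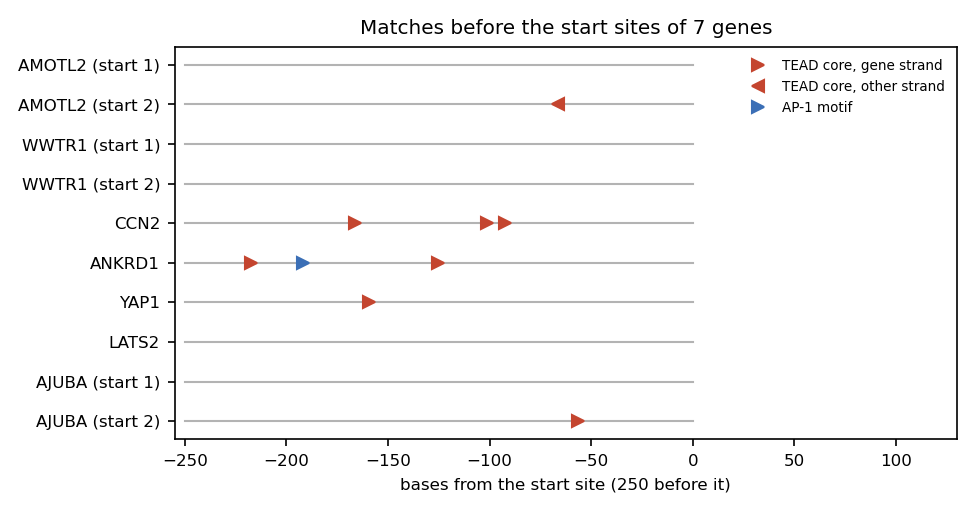
Positions of the TEAD core (red) and the AP-1 motif (blue) along the 250 bases before 10 start sites of 7 genes, in bases from the start; arrowheads point along or against the gene's strand. *CCN2* holds 3 TEAD cores and *ANKRD1* 2 beside the single AP-1 match, while *LATS2*, both starts of *WWTR1* and the first starts of *AMOTL2* and *AJUBA* hold none.

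Both coactivator genes were higher after TH588, at 1.61-fold for *WWTR1* and 1.21-fold for *YAP1*. *YAP1* (ENSG00000137693, chromosome 11 of GRCh38 from 102110461 to 102233423) stood at 58.3, 61.2 and 62.5 CPM under DMSO (replicates A, B and C in turn) and at 80.2, 69.2 and 70.2 CPM under TH588. The lowest TH588 library lay above the highest DMSO library. Its log2 fold change was 0.27 (standard error, SE, 0.08, edgeR adjusted p = 0.0174), or 1.21-fold with a 95% interval of 1.06 to 1.37. This call was close to the threshold: without DMSO replicate A the adjusted p was 0.0543 and without DMSO replicate B it was 0.0665. *WWTR1* (ENSG00000018408, chromosome 3, 149517235 to 149736714) stood at 16.7, 16.7 and 16.9 CPM under DMSO and at 30.1, 26.7 and 24.5 CPM under TH588. The DMSO libraries were nearly equal and each TH588 library was well above them. Its log2 fold change was 0.69 (SE 0.10, edgeR adjusted p = 0.000109), and it kept its call in all 15 alternatives. Exons of a gene on the opposite strand cover 9.97% of the exon bases of *YAP1* and 9.45% of those of *WWTR1*, and the library kit did not mark strand.

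Levels of different genes are set side by side per kilobase of exon. The length is that of all exons in a gene's model and not of the transcripts in use, so comparisons between genes, here and below, are approximate. Per kilobase, *YAP1* remained the more abundant coactivator, at 9.63 ± 0.340 CPM per kb under DMSO and 11.6 ± 0.966 under TH588 (SD, n = 3), against 1.99 ± 0.00993 and 3.22 ± 0.335 for *WWTR1*. The share of *WWTR1* in their sum was 16.8% to 17.7% in DMSO libraries and 20.7% to 22.4% in TH588 libraries, without overlap. Their sum was 11.6 ± 0.346 CPM per kb under DMSO and 14.8 ± 1.27 under TH588 (SD, n = 3; exact permutation p = 0.1, the smallest possible). In all, 10 sums, shares and ratios were compared by exact permutation, and adjusted over them a p of 0.1 became 0.111, so none passed 0.05.

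**Figure D2:**
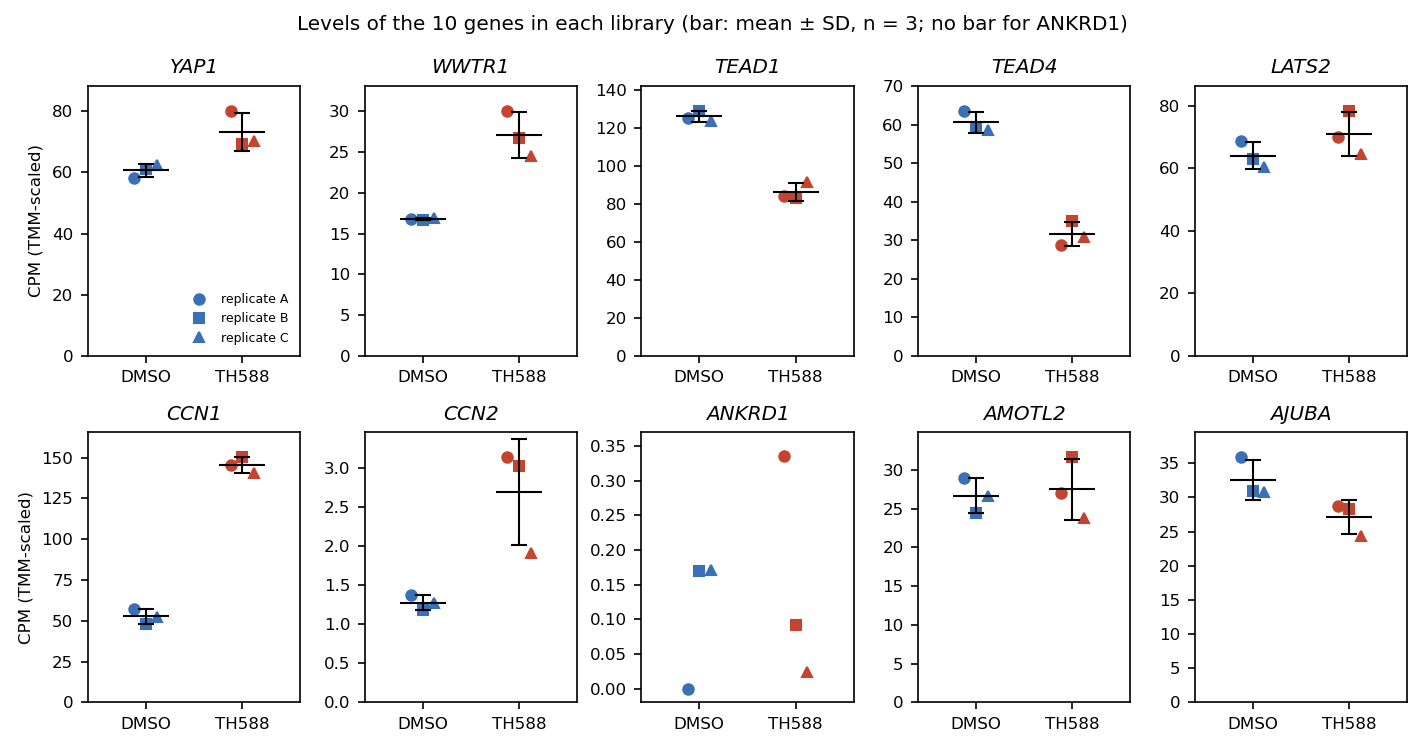
CPM on TMM-scaled library sizes (vertical axes, from 0 except for *ANKRD1*, whose axis starts just below) of the 10 genes in the DMSO (blue) and TH588 (red) libraries, with replicates A, B and C as circles, squares and triangles and bars for mean ± SD. The groups are apart for *YAP1*, *WWTR1*, *TEAD1*, *TEAD4*, *CCN1*, *CCN2* and *AJUBA*, and overlap for *LATS2*, *AMOTL2* and *ANKRD1*.

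The TEAD genes, which encode the DNA-binding partners, moved in different directions. *TEAD4* (ENSG00000197905, chromosome 12, 2959330 to 3040673) lay at 63.8, 59.5 and 58.7 CPM in DMSO libraries and at 28.8, 35.0 and 30.9 CPM in TH588 libraries. Every TH588 value was lower by more than the spread within either group. The log2 fold change was -0.94 (SE 0.09, edgeR adjusted p = 4.47e-06) and stayed between -1.02 and -0.83 under the alternatives. *TEAD1* (ENSG00000187079, chromosome 11, 12674591 to 12944483), the broadly expressed member of the family, fell from 125.2, 129.0 and 123.6 CPM to 84.1, 83.2 and 91.4 CPM. That is a log2 fold change of -0.55 (SE 0.08, edgeR adjusted p = 8.46e-05), again with no overlap.

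Of the other TEAD genes, *TEAD3* was higher and *TEAD2* did not pass. *TEAD3* rose from 3.95 ± 0.418 to 9.39 ± 0.236 CPM (SD, n = 3), a log2 fold change of 1.25 (SE 0.12, edgeR adjusted p = 6.2e-06). *TEAD2* was at 39.9 ± 1.20 CPM under DMSO and 45.0 ± 4.05 CPM under TH588 (SD, n = 3). Its log2 fold change of 0.17 had a 95% interval of -0.01 to 0.36 and missed the threshold (edgeR adjusted p = 0.115), although its groups did not overlap and without TH588 replicate A it passed, at an adjusted p of 0.0482. Exons of *CD37* on the opposite strand cover 10.7% of the exon bases of *TEAD2*.

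Per kilobase of exon, *TEAD4* gave 48.9% to 51.0% of the summed level of *TEAD1*, *TEAD2*, *TEAD3* and *TEAD4* in DMSO libraries and 33.2% to 35.7% in TH588 libraries. The share of *TEAD2* was 24.6% to 25.5% under DMSO and 35.8% to 38.6% under TH588, and that of *TEAD3* 2.19% to 2.76% and 7.05% to 7.93%. *TEAD2* thus held the largest share in each TH588 library, and *TEAD4* in each DMSO library. The share of *TEAD1* overlapped between the groups, with a mean of 22.8% under DMSO and 20.8% under TH588. The summed TEAD level was 53.6 ± 1.40 CPM per kb under DMSO and 40.5 ± 2.53 under TH588 (SD, n = 3; exact permutation p = 0.1). The ratio of *YAP1* plus *WWTR1* to the 4 TEAD genes was 0.204 to 0.228 in DMSO libraries and 0.328 to 0.427 in TH588 libraries (exact permutation p = 0.1, adjusted 0.111). With TH588 replicate A set aside, the other TH588 libraries gave ratios of 0.328 and 0.352, both above each DMSO library.

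**Figure D3:**
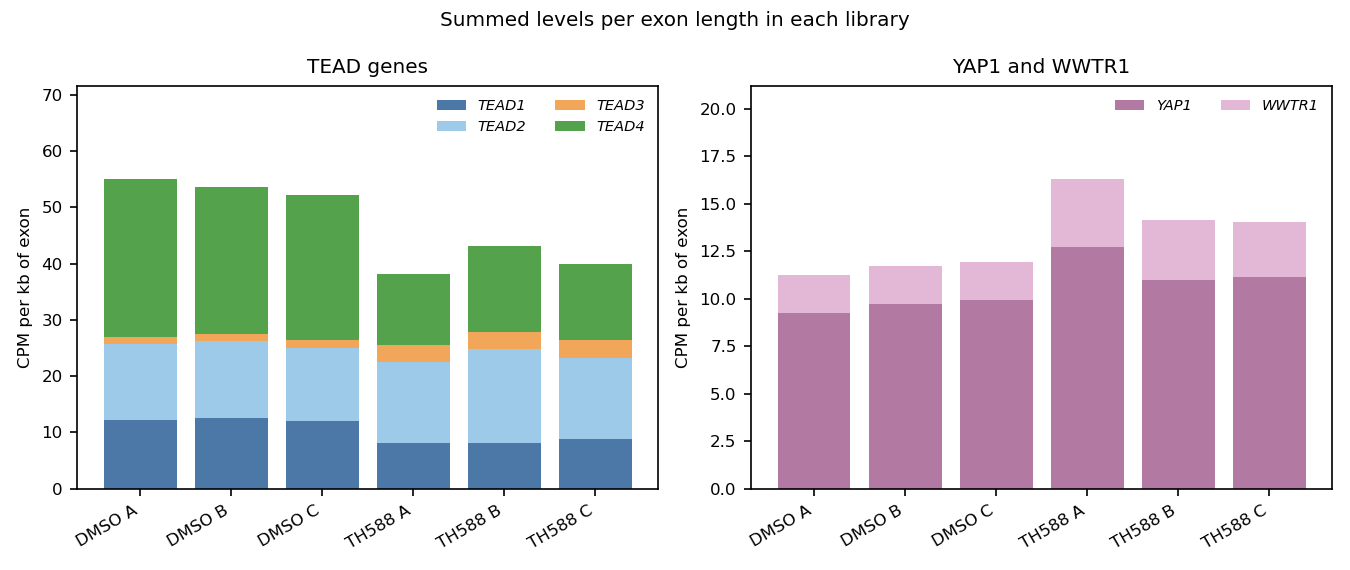
Stacked levels in CPM per kb of exon of the TEAD genes (left) and of *YAP1* and *WWTR1* (right) in each of the 6 libraries. The TEAD bars are shorter in TH588 libraries (38.2 to 43.2 against 52.3 to 55.0), with less *TEAD4* and more *TEAD3*, while the coactivator bars are taller (14.1 to 16.3 against 11.2 to 11.9).

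Of the VGLL genes, which encode cofactors that compete with YAP and TAZ for TEAD, *VGLL1* and *VGLL2* had 0 counts in all 6 libraries, where 3 counts would be 0.0276 CPM in TH588 replicate B, the deepest, and 0.112 CPM in the shallow TH588 replicate A. *VGLL3* was at 0.273 ± 0.0336 and 0.247 ± 0.0128 CPM (SD, n = 3), with a log2 fold change of -0.16 and a 95% interval of -1.06 to 0.73 (edgeR adjusted p = 0.771). *VGLL4*, known as a repressor of YAP-dependent transcription, rose from 12.7 ± 1.26 to 15.9 ± 1.57 CPM (SD, n = 3; log2 fold change 0.33, edgeR adjusted p = 0.0353). That call was lost in 4 of the 6 fits that left out a library, those without DMSO replicate B or C or TH588 replicate B or C, with adjusted p-values of 0.061 to 0.132. Exons of other genes on the opposite strand, *ATG7* among them, cover 23.7% of its exon bases. Of the 8 tested coactivator, TEAD and VGLL genes, 4 were higher (50%) and 2 lower (25%), against 24.2% and 25.3% of all tested genes. Without DMSO replicate B, 2 genes of this list were called higher.

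*LATS2*, a kinase that restrains YAP and TAZ, is itself induced by them and has also been described as a p53 target. It is encoded on chromosome 13 (ENSG00000150457, 20973032 to 21061547) and stood at 68.7, 62.9 and 60.3 CPM under DMSO and at 69.9, 78.5 and 64.7 CPM under TH588, so that TH588 replicate C lay below DMSO replicate A. The log2 fold change was 0.15, with a 95% interval of -0.05 to 0.35 (edgeR adjusted p = 0.192), so a rise of up to 1.27-fold or a small fall could not be told apart from no change. *LATS1*, its paralog, fell from 80.0 ± 1.27 to 66.6 ± 7.64 CPM (SD, n = 3; log2 fold change -0.27, edgeR adjusted p = 0.026). The *LATS1* call was lost in 5 of the 6 fits that left out a library, all but the one without TH588 replicate A, with adjusted p-values of 0.0683 to 0.134, and with library size only (0.132). Per kilobase, the *LATS2* share of both kinases was 53.6% to 57.5% under DMSO and 59.0% to 66.3% under TH588 (exact permutation p = 0.1).

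*AMOTL2*, an angiomotin family member, holds YAP in the cytoplasm and is also one of its targets. The gene lies on chromosome 3 (ENSG00000114019, 134355874 to 134375479). It stood at 28.9, 24.5 and 26.6 CPM under DMSO and at 27.1, 31.7 and 23.8 CPM under TH588, with the DMSO values lying within the range of the TH588 values. The log2 fold change of 0.05 had a 95% interval of -0.20 to 0.29 (edgeR adjusted p = 0.758), which bounds a change at 1.22-fold upward. Its relatives moved apart: *AMOT* rose from 2.65 ± 0.559 to 4.38 ± 0.581 CPM (SD, n = 3), a log2 fold change of 0.74, while *AMOTL1* fell from 11.3 ± 1.02 to 7.92 ± 0.851 CPM (SD, n = 3), a log2 fold change of -0.50. *AMOTL1* was named after its values were seen.

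*AJUBA*, a LIM-domain protein that binds and inhibits LATS kinases, is on chromosome 14 (ENSG00000129474, 22971174 to 22982642). It was at 35.9, 31.0 and 30.7 CPM under DMSO and at 28.8, 28.3 and 24.4 CPM under TH588. The groups did not overlap, but DMSO replicate A stood above the other DMSO libraries. The log2 fold change was -0.26 (SE 0.10, edgeR adjusted p = 0.043). This was the least stable call of the 7: it was lost in 9 of 15 alternatives, among them library size only (adjusted p = 0.284) and the fits without DMSO replicate A (0.253), DMSO replicate B (0.058), DMSO replicate C (0.0724) or TH588 replicate C (0.216). *WTIP*, of the same LIM-protein family, fell by 0.68 on the log2 scale, from 36.2 ± 2.20 to 22.5 ± 1.17 CPM (SD, n = 3; edgeR adjusted p = 4.42e-05).

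**Figure D4:**
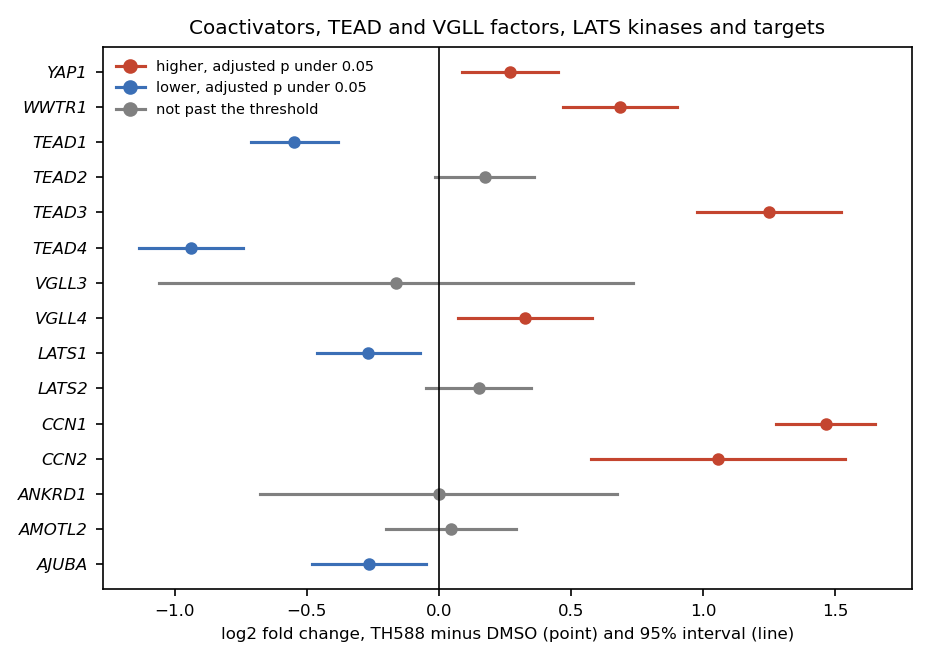
Log2 fold change (point) and its 95% interval (line), TH588 minus DMSO, for coactivators, TEAD and VGLL factors, LATS kinases and the other genes described here; red is higher and blue lower at an adjusted p under 0.05, grey did not pass. The TEAD points spread from -0.94 (*TEAD4*) to 1.25 (*TEAD3*). The line drawn for *ANKRD1* does not bound its change.

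Among the targets, *CCN1*, which encodes the secreted matricellular protein CYR61, showed the largest change of the 10 genes. It lies on chromosome 1 (ENSG00000142871, 85580761 to 85583962) and stood at 57.4, 48.1 and 52.6 CPM under DMSO and at 145.6, 150.3 and 140.4 CPM under TH588. The TH588 libraries were close to each other and all lay far above the DMSO libraries. The log2 fold change was 1.47 (SE 0.09, edgeR adjusted p = 1.15e-07), between 1.40 and 1.57 under the alternatives. *CCN2*, which encodes the related protein CTGF, is on chromosome 6 (ENSG00000118523, 131948176 to 131951373), downstream of the window with 3 TEAD cores printed above. It was far less abundant, with 113, 98 and 119 counts in DMSO libraries and 84, 329 and 159 in TH588 libraries, or 1.38, 1.19 and 1.27 CPM against 3.14, 3.02 and 1.91 CPM. TH588 replicate C was lower than the other TH588 libraries but still above each DMSO library. The log2 fold change was 1.06 (SE 0.22, edgeR adjusted p = 0.00165), between 0.94 and 1.29 under the alternatives. Exons of a gene on the opposite strand cover 8.34% of those of *CCN2*.

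Per kilobase, *CCN1* exceeded *CCN2* 38.6 to 39.8 times in DMSO libraries and 44.2, 47.4 and 70.2 times in TH588 replicates A, B and C, the last set by the low *CCN2* value of that library. *ANKRD1* (ENSG00000148677, chromosome 10, 90912096 to 90921276), a cardiac ankyrin repeat protein gene widely used as a YAP readout, had 0, 14 and 16 counts under DMSO and 9, 10 and 2 under TH588. Each group thus held a library at or below the floor of 3 counts, and the groups overlapped. No difference was detectable at this depth, with a fitted log2 fold change of 0.00 (edgeR adjusted p = 0.999). The 95% interval came out at -0.67 to 0.68, but its SE derives from a fold change near 0, so it does not bound a change. The fitted value rests on single libraries, since it was -0.90 without TH588 replicate A, -0.54 without DMSO replicate A and 0.71 without TH588 replicate C.

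By level per kilobase, the order under DMSO was *TEAD4* (26.7 ± 1.19 CPM per kb, SD, n = 3), *CCN1* (21.5 ± 1.89), *TEAD1* (12.3 ± 0.271), *LATS2* (11.5 ± 0.766), *YAP1*, *AJUBA* (5.44 ± 0.489), *AMOTL2* (4.46 ± 0.372), *WWTR1*, *CCN2* (0.546 ± 0.0402) and *ANKRD1*. *TEAD1* and *LATS2* overlapped in their libraries, and the other neighbours did not. Under TH588, *CCN1* came first at 59.3 ± 2.02 CPM per kb (SD, n = 3), followed by *TEAD4* at 13.9 ± 1.38, *LATS2* at 12.7 ± 1.25, *YAP1*, *TEAD1* at 8.39 ± 0.437, *AMOTL2*, *AJUBA*, *WWTR1*, *CCN2* at 1.15 ± 0.291 and *ANKRD1*. There *TEAD4* overlapped *LATS2*, *LATS2* overlapped *YAP1*, and *AMOTL2* overlapped *AJUBA*.

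In a 22-gene signature of YAP and TAZ targets written from general knowledge of the literature, which includes *CCN1*, *CCN2*, *ANKRD1*, *LATS2* and *AMOTL2*, 20 genes could be tested. Of these 8 were higher (40%) and 3 lower (15%), against 24.2% and 25.3% of all tested genes, and the median log2 fold change was 0.15 against 0.02. The largest rises were those of *GADD45A*, a growth arrest gene also induced by p53, from 2.36 ± 0.320 to 11.2 ± 2.11 CPM (log2 fold change 2.26), and *MYOF*, a membrane repair ferlin, from 5.74 ± 1.11 to 16.9 ± 2.22 CPM (1.55; SD, n = 3 each), beside *CCN1*. The falls were *FJX1* (-0.79), *DOCK5* (-0.52) and *ASAP1* (-0.33), the last of which was not past the threshold with library size only (adjusted p = 0.0623). *IGFBP3* and *FOXF2* were too low to test. The gene lists were chosen with earlier results of these data known, so the shares given for each list are descriptions and not tests.

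**Figure D5:**
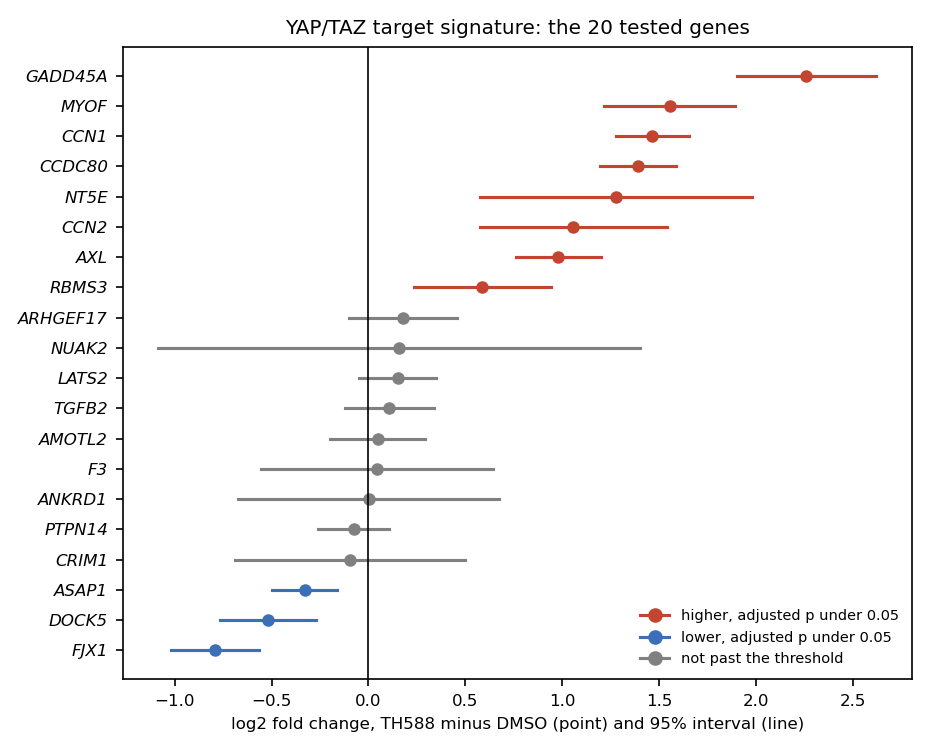
Log2 fold change and 95% interval, TH588 minus DMSO, of the 20 tested genes of the target signature, ordered by size; colours as for the pathway plot. Of these, 8 intervals in red lie above 0, 3 in blue below, and the 9 in grey belong to genes that did not pass the threshold. The line drawn for *ANKRD1* does not bound its change.

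In a separate list of 23 genes described as YAP or TAZ targets, which includes *AJUBA* and *LATS1*, 13 could be tested. Of these, 2 were higher (15.4%) and 6 lower (46.2%), against 24.2% and 25.3% of all tested genes. *AJUBA* and *LATS1* are among the lower ones and are thus not new results here. The median log2 fold change was -0.26, the value of *AJUBA* itself, against 0.02. The higher ones included *AREG*, which encodes the EGFR ligand amphiregulin (0.0649 ± 0.112 to 1.53 ± 0.400 CPM, SD, n = 3). It was near 0 under DMSO and was named after its values were seen. Among the lower genes was *BIRC5*, which encodes survivin, a protein made in dividing cells, at 60.2 ± 2.68 CPM under DMSO and 27.4 ± 8.76 under TH588 (SD, n = 3; log2 fold change -1.12). *CCND1* and *MYC*, often listed as YAP targets, had log2 fold changes of 0.06 and 0.18 and did not pass. These were also named after their values were seen.

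In the Hippo kinase core and its scaffolds, 4 of 25 tested genes were higher (16%) and 9 lower (36%), around a median of -0.04 on the log2 scale. These genes include *LATS2*, which was not called, and *LATS1*, which is among the lower ones. The 52% called in either direction was near the 49.6% of all tested genes, of which 24.2% were higher and 25.3% lower. The largest falls were *NF2*, which encodes the upstream scaffold merlin (163.5 ± 4.76 to 96.8 ± 11.3 CPM, SD, n = 3; log2 fold change -0.75), *WWC1*, which encodes the scaffold KIBRA (-0.74), and *RASSF1* (-0.72), 17.9% of whose exon bases lie in exons of an antisense gene. The largest rises were *MOB1B*, a coactivator of LATS kinases (0.72), *FRMD6*, an upstream scaffold (0.38), and *MAP4K2*, a kinase that can activate LATS (0.33). The core kinases MST2 and MST1, encoded by *STK3* and *STK4*, had log2 fold changes of 0.06 and -0.06 with 95% intervals of -0.12 to 0.25 and -0.23 to 0.11, and were named for their place in the cascade after their values were seen. With library size only, 4 genes of this list were lower. The count of higher genes was 2 without DMSO replicate B or TH588 replicate B, and *MAP4K2* lost its call without either of these or without DMSO replicate C.

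Of 24 other regulators of YAP and TAZ, 6 were higher (25%) and 8 lower (33.3%), with a median of -0.05 on the log2 scale. These genes include *AMOTL2*, which was not called, and *AJUBA*, which is among the lower ones. Over all tested genes the shares were 24.2% and 25.3%. The falls included *YWHAQ* (-0.74) and *YWHAB* (-0.70), 14-3-3 genes whose proteins bind phosphorylated YAP. The rises included *TNKS* (0.55), a tankyrase that marks angiomotins for degradation, and *CSNK1E* (0.50), a kinase whose phosphorylation of YAP promotes its degradation. Exons of the readthrough gene *TPTEP2-CSNK1E* cover 21.1% of those of *CSNK1E*. Its call was lost without any one of DMSO replicate B, DMSO replicate C, TH588 replicate B or TH588 replicate C. Without DMSO replicate B, 3 genes of this list were higher.

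Genes with a pattern most like that of a member were sought among the 9762 genes averaging 2 or more on the log2 CPM scale, by the root mean square difference of log2 CPM over the 6 libraries after centring each gene on its mean. For *YAP1* they included *SMURF2* (0.0146) and *ATF2* (0.0272). For *CCN1* they were *ZNF341* (0.0521), *SLC25A35* (0.0545) and *AP3B2* (0.0553). For *CCN2* they were *STX10* (0.114), *SPRY4* (0.142) and *ZBTB22* (0.143). The genes compared share libraries and depth, and the values describe likeness only.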

How the data were processed

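A2780 RNA was sequenced from 3 biological replicates given DMSO and 3 given 6 µM TH588, for 48 h. The authors extracted RNA on columns, prepared TruSeq v2 libraries, aligned reads to GRCh38 with TopHat and counted them per gene with featureCounts 1.4.6, and deposited raw counts. Gene models are named as UCSC in the methods, but identifiers are Ensembl's, of which 57754 of 58336 matched a symbol. Of the matched genes, 99.97% overlapped the same gene in GENCODE's GRCh38 annotation. Strand setting and the treatment of reads that match several genes are not given in the sources used here.

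The counts were compared with edgeR 4.0.16 in R 4.3.3 (TMM, default low-count filter, quasi-likelihood test, no block). Each SE was taken as log2 fold change over root F. Floors of 3 counts cover counting error only. Gene lists were written from general knowledge, and the members and lists were chosen with earlier results of these data known. Named genes were the 10 members, the coactivator, TEAD and VGLL genes, and up to 3 rises and 3 falls per list among called genes averaging 1 or more on the log2 CPM scale whose groups did not overlap, *CDKN1A*, and the 3 genes most like *YAP1*, *CCN1* and *CCN2* each. Others are said to be named after their values were seen, and some genes the rule names are not reported here. Protein sequences were not analysed here.

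Alternatives in scaling were library size alone and DESeq2's size factors. Other tools were limma-voom (limma 3.58.1) and DESeq2 1.42.0. The low-count filter was dropped or set to 10 counts everywhere, libraries were omitted in turn, the replicate letter was made a block, and the threshold was lowered to 0.01. Removal of the 10 most abundant genes was chosen after seeing the data. When counts were simulated with 200 genes raised or lowered by 1 on the log2 scale, edgeR recovered 144 of 186 changed genes among 15209 tested. That included 125 of 125 averaging 2 or more on the log2 CPM scale, and 9 unchanged genes were called. In the data 49.6% of tested genes were called, so the simulation does not cover so broad a change. Nor does it cover smaller changes, such as those of *YAP1* and *AJUBA*. Within each group, libraries varied beyond sampling noise (chi-square per degree of freedom 23.5 to 165.3), so each library was counted as 1 replicate.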

Additional observations from a re-analysis of the deposited data

How the results depend on the processing

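Counts of called genes and of start sites with a motif stayed within 1.5 times the reported value in 259 of 272 comparisons. The number of genes called over the whole table was 7852, ranged from 6805 to 7914 with 1 library left out, and was 5831 at an adjusted p under 0.01. The number of called members ranged from 5 to 7. With library size only, 4 Hippo core genes were lower. With DESeq2, and with at least 10 counts in every library, 1 gene of the separate target list was higher. At an adjusted p under 0.01, 2 Hippo core genes, 2 of the coactivator, TEAD and VGLL genes and 0 markers of other cell types were higher. With 1 library left out, genes called higher ranged from 2 to 4 in the Hippo core, 3 to 5 among other regulators, 2 to 5 among coactivator, TEAD and VGLL genes and 0 to 2 among markers of other cell types. The cause was not tested.

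The uncalled *ANKRD1* and *AMOTL2* changed sign. *ANKRD1* was -0.040 with the replicate block and ranged from -0.90 to 0.71 with 1 library left out, and had no value with at least 10 counts in every library. *AMOTL2* ranged from -0.072 to 0.16. Across 15 alternatives, members' values kept their direction and side of the threshold in 132 cases and lost a call in 12, all of *YAP1* or *AJUBA*.

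The sample labels do not say whether libraries of one letter were prepared together. Their deviations from the group means correlated at -0.07, -0.08 and 0.00 for replicates A, B and C. Each group mean comes from the same few libraries, so these values cannot decide whether libraries of one letter shared a batch. Adding the letter as a replicate block gave 7195 calls, 7129 of them also made without it, and of the members only *AJUBA* lost its call (adjusted p = 0.0549). Of the other named genes, *VGLL4* (0.0674), *CSNK1E* (0.0538) and *LATS1* (0.0502) lost theirs under the block. A count of 0 allows 0.112 CPM in TH588 replicate A and 0.0276 to 0.0365 CPM elsewhere, which limits *ANKRD1* and the VGLL genes.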
